A study of Mus musculus with 4 samples.

Results

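Neurofilaments are the rope-like intermediate filaments that fill large axons and set their calibre. Nefl, Nefm and Nefh encode their light, medium and heavy subunits: the light subunit forms the core, and the medium and heavy subunits add long tails that carry many phosphate groups and project from the filament. They are abundant in thick, myelinated projection axons, and neurofilament protein released into fluid is widely used as a marker of axonal injury. Here they are described in N6-methyladenosine (m6A) data, where m6A is a methyl mark on RNA that is frequent near stop codons and in 3' UTRs.

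The values are read counts at m6A peaks, from methylated RNA immunoprecipitation sequencing of cerebral cortex of mice that had repetitive mild traumatic brain injury (rmTBI, called TBI in the sample labels) or a sham procedure. Each group has 2 libraries, numbered 0 and 1, and the labels give all 4 the same anti-m6A antibody. The labels state neither the strain, age or sex of the mice, nor the injury protocol and the time after it. They also do not say whether the libraries came from separate mice, so a p-value covers the spread between libraries alone, and that spread may be technical. Nor do they say what the numbers 0 and 1 mean. If the numbers mark different kinds of library, for example RNA before and after the pull-down, the libraries of a group are not replicates, and each mean ± SD, SE and fold over a group mixes the kinds; values within each number are given for that reason. All rows of the 3 genes were taken from the table of all peaks by gene name, which gave 10 of 33977 peaks. These 10 overlap into 6 regions, 2 in each gene.

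The 3 genes were chosen with earlier results of these data known, among them that the Nefh 3' UTR peak lay lower in rmTBI. Their rmTBI and sham values are therefore given as a description. The whole-table fit is quoted only to say which peaks pass it, and nothing is read from it. Because the labels give every library the antibody, a lower count at a peak cannot be told apart from less of the transcript, and fewer cells of a type cannot be told apart from less RNA per cell. Library totals over all peaks ran from 13753600 to 26888072 counts, with the libraries numbered 1 the deeper ones in both groups, and levels are given as TMM-scaled CPM (counts scaled to a common library size by the cpm function of edgeR).

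The peaks sat in different parts of the 3 transcripts, by the authors' classes and by the deposited coordinates, which lie inside the GRCm38.p6 RefSeq spans of these genes for all 10 peaks. Nefh on chromosome 11 had a 3' UTR region (4939021 to 4940244 in the sham set, 4939051 to 4940244 in the rmTBI set) and a coding region (4941018 to 4941376 in the sham set, 4941047 to 4941406 in the rmTBI set). The 3' UTR peak of the rmTBI set ended 297 bases from the 3' end of the gene. Nefm on chromosome 14 had no 3' UTR peak among the rows used here. Its long coding region (68120159 to 68121208 in the sham set) began 3796 bases from the 5' end of the gene, and its short coding region (68124605 to 68124846 in the rmTBI set) began 158 bases from that end and was annotated to another transcript. Nefl, on the same chromosome, had 3' UTR peaks alone, with a long one of 892 bases (68086619 to 68087510) and a short one of 181 bases (68087629 to 68087809).

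The sets called in rmTBI and in sham held 5 peaks of these genes each. Both regions of Nefh and both of Nefm were present in each set, with borders that differed by at most 30 bases. The Nefl long peak came from the sham set and the Nefl short peak from the rmTBI set. The long Nefl peak held 7429 and 16010 reads in the rmTBI libraries, so its place in 1 set does not mean that the other condition lacked reads there. Peak numbers in the table are not continuous, so a matching row may have existed among peaks not analysed here.

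**Figure D1:**
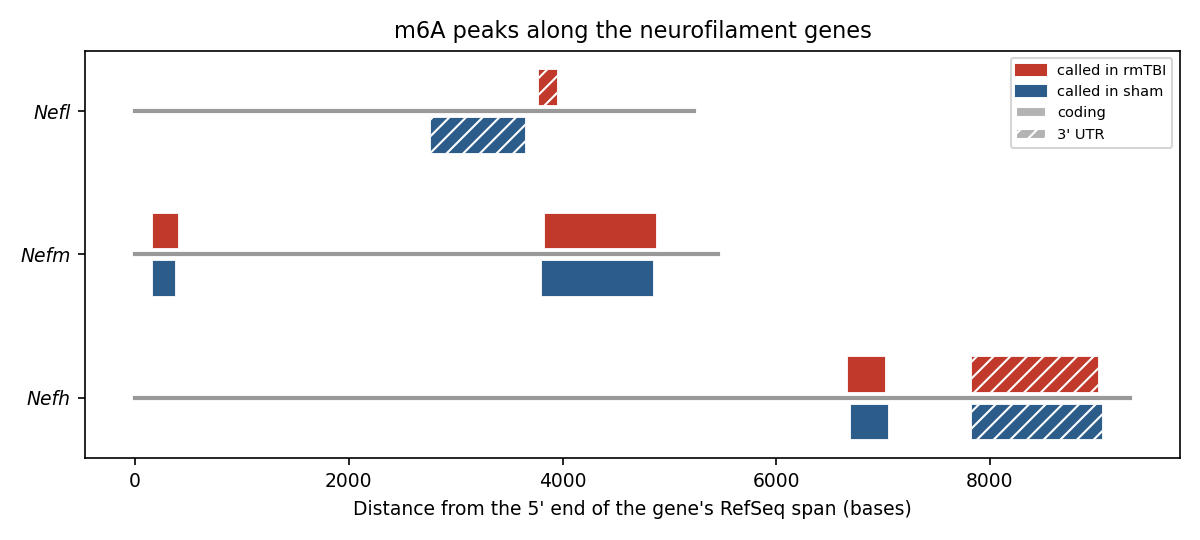
Position of the 10 m6A peaks along the 3 neurofilament genes, as distance in bases from the 5' end of each gene's RefSeq span (grey line). Bars above the line are peaks of the rmTBI set and bars below it those of the sham set, plain for coding and hatched for 3' UTR; the Nefm peaks lie in coding sequence and the Nefl peaks in the 3' UTR.

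Per base of peak, Nefm carried the densest signal and Nefh less of it, most of all in rmTBI. The Nefm long coding peak (sham set) had 789 and 821 CPM per kilobase in rmTBI libraries 0 and 1, against 1133 and 1322 in sham libraries 0 and 1. The Nefl long 3' UTR peak had 631 and 646 CPM per kilobase in rmTBI, against 716 and 864 in sham. The Nefh 3' UTR peak (sham set) had 163 and 191 CPM per kilobase in rmTBI, against 373 and 442 in sham. These 3 kept the order Nefm, Nefl, Nefh in each of the 4 libraries without overlap within either group. The Nefh coding peak of the rmTBI set stood beside the Nefh 3' UTR peak, with 146 and 208 CPM per kilobase in rmTBI, against 386 and 469 in sham, and those ranges overlap.

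The short peaks of Nefl and Nefm were far weaker. The Nefl short peak had 35.6 and 29.4 CPM per kilobase in rmTBI, against 67.4 and 35.4 in sham. The Nefm short peak of the rmTBI set had 35.7 and 42.5 CPM per kilobase in rmTBI, against 36.2 and 40.7 in sham. Their order cannot be told in sham, where their ranges overlap, and in rmTBI the ranges lie next to each other. Among the 33415 peaks tested, the Nefm long peak of the sham set ranked 52 by mean CPM, the Nefl long peak 114 and the Nefh 3' UTR peak of that set 294.

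**Figure D2:**
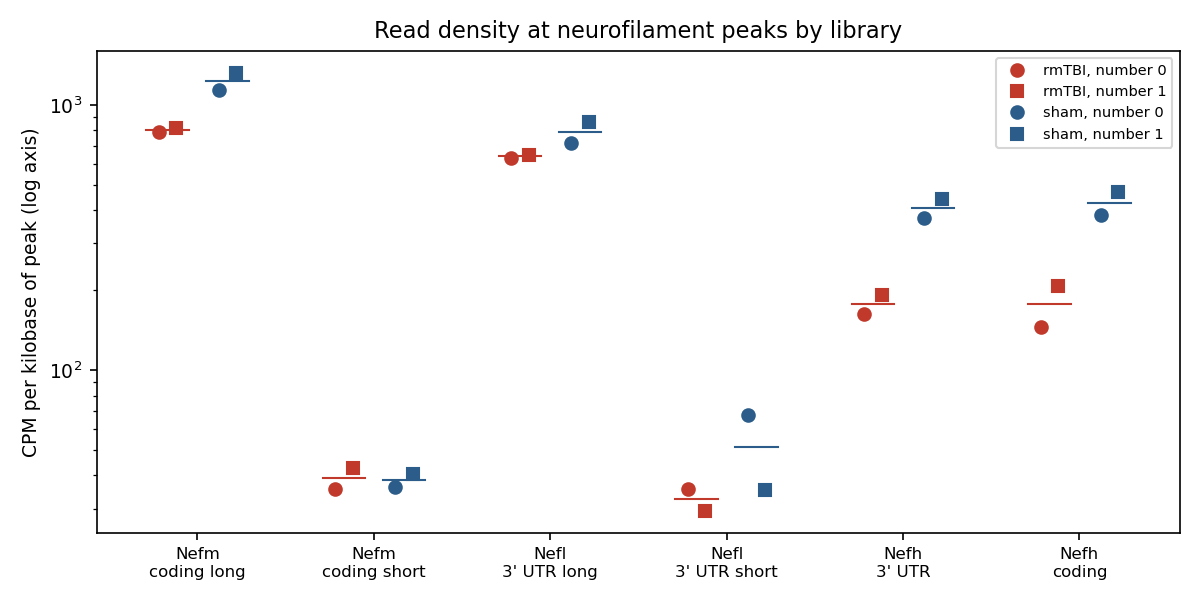
Read density at the 6 neurofilament regions in CPM per kilobase of peak (log axis), at the row with the most reads in each region, with 1 point per library (circles number 0, squares number 1) and a line at each group's mean. The rmTBI points lie below the sham points at both Nefh regions and at the long peaks of Nefm and Nefl; at the 2 short peaks the groups overlap.

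Nefh, the heavy subunit, showed the largest difference between rmTBI and sham of the 3 genes. At its 3' UTR peak of the sham set 199.6 and 234 CPM were counted in rmTBI libraries 0 and 1, against 456 and 541 CPM in sham libraries 0 and 1. The group means were 217 ± 24.6 CPM in rmTBI and 499 ± 59.8 CPM in sham (SD, n = 2 libraries each), so rmTBI held 43.5% of the sham level. Both rmTBI libraries lay below both sham libraries, and the log2 fold change was -1.20 (SE 0.22). Within the libraries numbered 0 it was -1.19, and within those numbered 1 it was -1.21.

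The coding region of Nefh, which shares no bases with the 3' UTR region, had the same pattern. Its rmTBI-set peak held 52.4 and 74.9 CPM in rmTBI, against 139 and 169 CPM in sham, again with no overlap between the groups. The means were 63.6 ± 15.9 CPM in rmTBI and 154 ± 21.2 CPM in sham (SD, n = 2 libraries each), a log2 fold change of -1.27 (SE 0.27). Here the 2 numbers differed somewhat, with -1.41 within number 0 and -1.17 within number 1. The count ratio of the 3' UTR to the coding peak, 3.81 and 3.13 in rmTBI, against 3.29 and 3.20 in sham, overlapped between the groups.

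Nefm, the medium subunit, lay lower in rmTBI at its long coding peak and not at its short one. The long peak of the sham set held 829 and 862 CPM in rmTBI, against 1189.7 and 1387.9 CPM in sham. The groups did not overlap, with means of 845 ± 23.7 CPM in rmTBI and 1289 ± 140 CPM in sham (SD, n = 2 libraries each), and the log2 fold change was -0.61 (SE 0.19; -0.52 within number 0 and -0.69 within number 1). The short peak near the 5' end, at the rmTBI-set row, held 8.64 and 10.3 CPM in rmTBI, against 8.77 and 9.84 CPM in sham. That is a log2 fold change of 0.03 (SE 0.26), and the groups overlap. It rests on 114 and 286 reads in rmTBI and 123 and 269 reads in sham.

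The reads of the 2 Nefm peaks therefore stood in different proportion in the 2 groups. The long peak held 95.9 and 83.8 reads for each read of the short one in rmTBI, against 136 and 141 in sham. This ratio is taken within a library and does not depend on scaling, and its groups did not overlap. The 2 peaks are annotated to different transcripts, and the labels do not say how reads were assigned to transcripts.

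Nefl, the light subunit on which the others assemble, differed least of the 3 at its main peak. The long 3' UTR peak held 563 and 576 CPM in rmTBI, against 639 and 771 CPM in sham, with means of 570 ± 9.04 CPM in rmTBI and 705 ± 93.6 CPM in sham (SD, n = 2 libraries each). Both rmTBI libraries lay below both sham libraries. The means differed by 135 CPM, about as much as the 132 CPM between the sham libraries, and the nearest libraries of the groups by 62.6 CPM. The log2 fold change was -0.31 (SE 0.20), with -0.18 within number 0 and -0.42 within number 1. The short 3' UTR peak held 6.44 and 5.32 CPM in rmTBI, against 12.2 and 6.40 CPM in sham. Its log2 fold change of -0.65 (SE 0.36) came mostly from the high value of sham library 0, with -0.92 within number 0 and -0.27 within number 1. Without that library it was -0.14.

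Summed over the 6 regions, the 3 genes held 1659 and 1763 CPM in rmTBI, against 2444 and 2885 CPM in sham. The balance between subunits can be read within each library, free of scaling, as ratios of counts per base of peak. The Nefh 3' UTR peak stood at 0.258 and 0.297 of the Nefl long peak in rmTBI, against 0.521 and 0.511 in sham. Against the Nefm long peak it stood at 0.207 and 0.233 in rmTBI, against 0.329 and 0.334 in sham. The Nefm long peak stood at 1.25 and 1.27 of the Nefl long peak in rmTBI, against 1.58 and 1.53 in sham.

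None of these ratios overlapped between the groups, and the same held for the Nefh coding peak. Its ratio to the Nefl long peak was 0.230 and 0.322 in rmTBI, against 0.539 and 0.543 in sham. Among the long peaks and the Nefh peaks, the difference between rmTBI and sham was smallest for Nefl, larger for Nefm and largest for Nefh. These ratios share peaks with each other, come from the contrast in which Nefh was first seen and carry no test. How often ratios between other peaks fail to overlap was not counted.

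**Figure D3:**
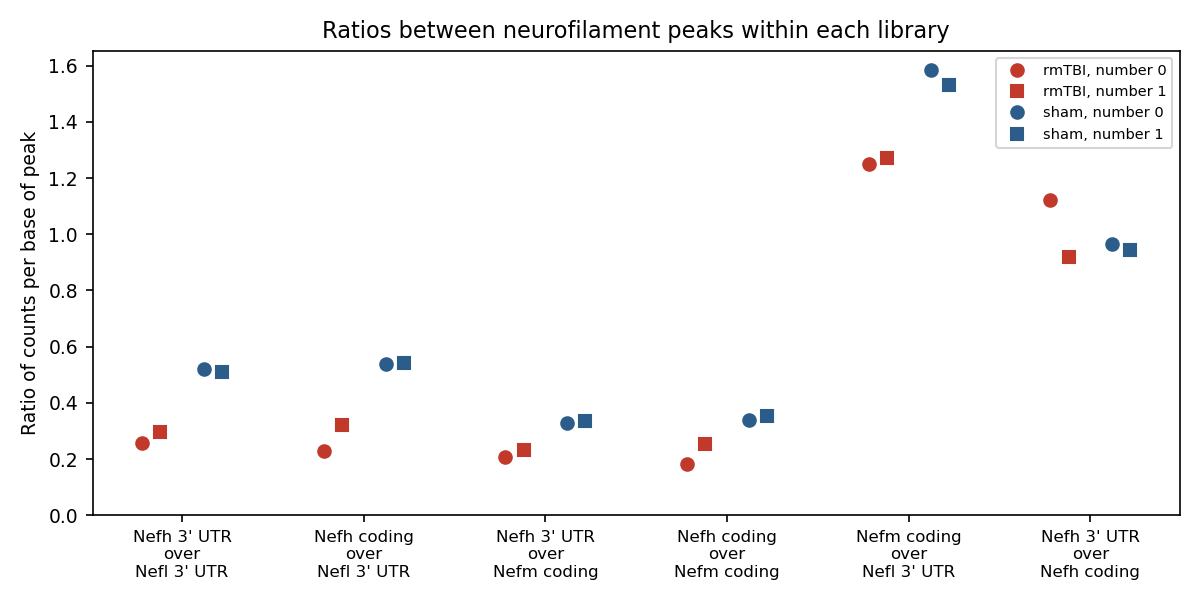
Ratios of counts per base of peak between neurofilament peaks within each library, with rmTBI (red) left of sham (blue), circles for number 0 and squares for number 1; Nefl and Nefm stand for their long peaks. The ratios of Nefh to Nefl and to Nefm and that of Nefm to Nefl lie lower in each rmTBI library than in any sham library, and the ratio between the Nefh peaks overlaps.

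In the fit across all peaks (edgeR quasi-likelihood test, Benjamini-Hochberg adjustment, adjusted p under 0.05 called), 0 of the 10 neurofilament peaks were called, where 0.0868% of all tested peaks were. All 10 had passed the filter on low counts. The adjusted p was 0.242 at both rows of the Nefh 3' UTR region and 0.398 and 0.425 at those of the coding region. At an unadjusted p under 0.05 there were 6 of the 10, the 4 Nefh rows and both rows of the Nefm long peak, against 2.11% of all tested peaks with such a p and a lower level. DESeq2 with Benjamini-Hochberg adjustment called the 4 Nefh rows (adjusted p from 0.0204 to 0.0275), where it called 0.407% lower of the 32659 peaks to which it gave an adjusted p. Both rmTBI libraries lay below both sham libraries at 7 of the 10 rows, which make up 4 of the 6 regions, against 12.3% of all tested peaks. Because overlapping rows share reads and the genes were chosen with these values known, these shares support nothing.

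Set among all peaks, 346 of the 33415 tested had a lower log2 fold change than the Nefh 3' UTR peak of the sham set, few of them strong peaks. Of the 1940 peaks with a mean of at least 100 CPM, 9 lay at or below the Nefh 3' UTR value, and none lay as far above 0. Those 9 belonged to Nefh and 3 other genes, Nexn, Plcb4 and Igsf5, which were named after their values were seen.

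By the rule for likeness, the Euclidean distance over the 4 libraries between centred log2 CPM profiles, the genes nearest to Nefh among 5057 were Unc13c, Zic1, Sh3d19, Ptpn4 and Spock3. The rule picks genes that share the Nefh difference between rmTBI and sham, so their lower level in rmTBI is no separate result. Unc13c, which encodes a protein of synaptic vesicle priming, had 23.7 and 32.2 CPM in rmTBI, against 54.2 and 66.9 CPM in sham. Spock3, a proteoglycan gene, had 41.0 and 59.4 CPM in rmTBI, against 90.9 and 115 CPM in sham. Zic1, a zinc finger transcription factor, had 15.2 and 15.9 CPM in rmTBI, against 35.8 and 35.4 CPM in sham. The other subunit genes were less close, with Nefm at rank 48 and Nefl at rank 194.

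The remaining genes of the neurofilament system were taken from 5 lists, with 47 of 57 genes tested at 344 peaks. By edgeR 0 of these peaks were called in either direction, and DESeq2 called 0. By edgeR 1 had an unadjusted p under 0.05, at a lower level, beside 2.11% of all tested peaks. Each gene is given at its peak with the highest mean CPM, where the median log2 fold change over the 47 genes was -0.02, beside 0.01 over all 10209 genes tested. Of the 47 genes, 7 had each rmTBI library below each sham library, beside 12.3% of all genes.

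Among the other intermediate filament genes, 4 of 7 had a log2 fold change above 0 and 3 below, with a median of 0.14. Ina encodes alpha-internexin, a further subunit of neurofilaments in the central nervous system. It had 65.3 and 63.0 CPM in rmTBI, against 87.8 and 78.2 CPM in sham, at its strongest 3' UTR peak (log2 -0.37, SE 0.23). Of the 7 genes it was the 1 whose groups did not overlap with rmTBI lower, where 12.3% of all genes did so. Its 4 regions had log2 fold changes from -0.49 to -0.27. Sync, the gene of syncoilin, stood at 0.47 near the lower limit of detection, and the lamin gene Lmnb2 at 0.33.

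Of the crosslinkers that tie filaments to other parts of the cytoskeleton, Dst stood at -0.22, the motor gene Myo5a at -0.15 and the plectin gene Plec at 0.09. Of the kinases and phosphatases that act on neurofilament tails, 9 of 15 genes lay above 0 and 6 below (median 0.09). The stress kinase gene Mapk8 stood at 0.28, the phosphatase subunit gene Ppp2ca at -0.23 and Cdk5, a kinase of the tail repeats, at -0.19. Of the genes of degradation, the calpain gene Capn2 stood at -0.45 and the calpain inhibitor gene Cast at -0.38.

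The list of axonal transport and axon cytoskeleton had 4 of 16 genes above 0 and 12 below, with a median of -0.07. The kinesin gene Kif5b stood at -0.27, the tubulin gene Tubb4a at -0.20 and the ankyrin gene Ank2 at 0.21. Summed over the 16 genes, the level was 12148 and 11835 CPM in rmTBI, against 12545 and 12757 CPM in sham. The log2 fold changes of the 16 genes ran from -0.27 to 0.21, beside -1.20 at the Nefh 3' UTR peak and -1.27 at the Nefh coding peak. What sets them apart was not tested.

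Most tested markers of thalamic neurons, striatal neurons, myelin and choroid plexus were lower in the same libraries as Nefh. All 11 tested thalamic markers lay lower in both rmTBI libraries (12.3% of all genes did), with a median log2 fold change of -2.77, and their summed level was 147 and 161 CPM in rmTBI, against 733 and 806 CPM in sham. By edgeR 19 of their 51 peaks were called lower in rmTBI, beside 0.0868% of all tested peaks; this list holds genes that were chosen from earlier results of these data. All 7 striatal markers (median -1.05; summed 644 and 614 CPM in rmTBI, against 1193 and 1168 CPM in sham) and 7 of 8 myelin genes (median -0.80; summed 455 and 409 CPM in rmTBI, against 668 and 634 CPM in sham) also lay lower in both. Both choroid plexus markers, Kl and Clic6, lay lower as well, with 7.43 and 7.59 CPM in rmTBI, against 29.0 and 32.0 CPM in sham. In these last 3 lists edgeR called 0 of 24 striatal, 0 of 24 myelin and 0 of 7 choroid plexus peaks, although 16, 19 and 7 of them had an unadjusted p under 0.05, all lower, beside 2.11% of all tested peaks. DESeq2 called 6 peaks of the choroid plexus list and 0 of the other two.

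Markers of neurons known for many neurofilaments, the parvalbumin interneurons and other large fast-spiking cells, lay lower in both rmTBI libraries for 5 of 5 tested genes (median log2 -0.43), beside 12.3% of all genes. Neither edgeR nor DESeq2 called any of their 34 peaks (0 each). By edgeR 3 had an unadjusted p under 0.05, all lower, beside 2.11% of all tested peaks. Vamp1, a vesicle protein gene, had the largest difference, with 15.5 and 15.1 CPM in rmTBI, against 37.3 and 27.1 CPM in sham. The summed level was 96.4 and 96.7 CPM in rmTBI, against 149 and 137 CPM in sham. Pvalb, the defining marker, was not analysed here. Some of these genes, such as Syt2 and Kcna1, are also expressed outside the cortex.

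Markers of the cortical layers mostly lay near or above 0, and edgeR called 0 of their 51 peaks (8 had an unadjusted p under 0.05, all higher, beside 0.73% of all tested peaks, and DESeq2 called 0). Of 4 upper layer genes, 3 lay above 0 (median 0.09; summed 227 and 175 CPM in rmTBI, against 203 and 154 CPM in sham), and of 3 layer 5 genes, 2 did (median 0.19; summed 49.9 and 75.1 CPM in rmTBI, against 46.3 and 75.5 CPM in sham). Astrocyte genes had a median of -0.08 (summed 454 and 485 CPM in rmTBI, against 429 and 453 CPM in sham) and microglial genes 0.59 (summed 36.8 and 36.3 CPM in rmTBI, against 26.4 and 30.3 CPM in sham). Of the 5 microglial genes, 3 lay higher in both rmTBI libraries and 1 lower, beside 1101 and 1260 of all 10209 genes. By edgeR 0 of 10 microglial peaks were called and 3 had an unadjusted p under 0.05, all higher, beside 0.73% of all tested peaks. DESeq2 called 0 of them. The part of any of these cells in the Nefh and Nefm values was not tested.

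**Figure D4:**
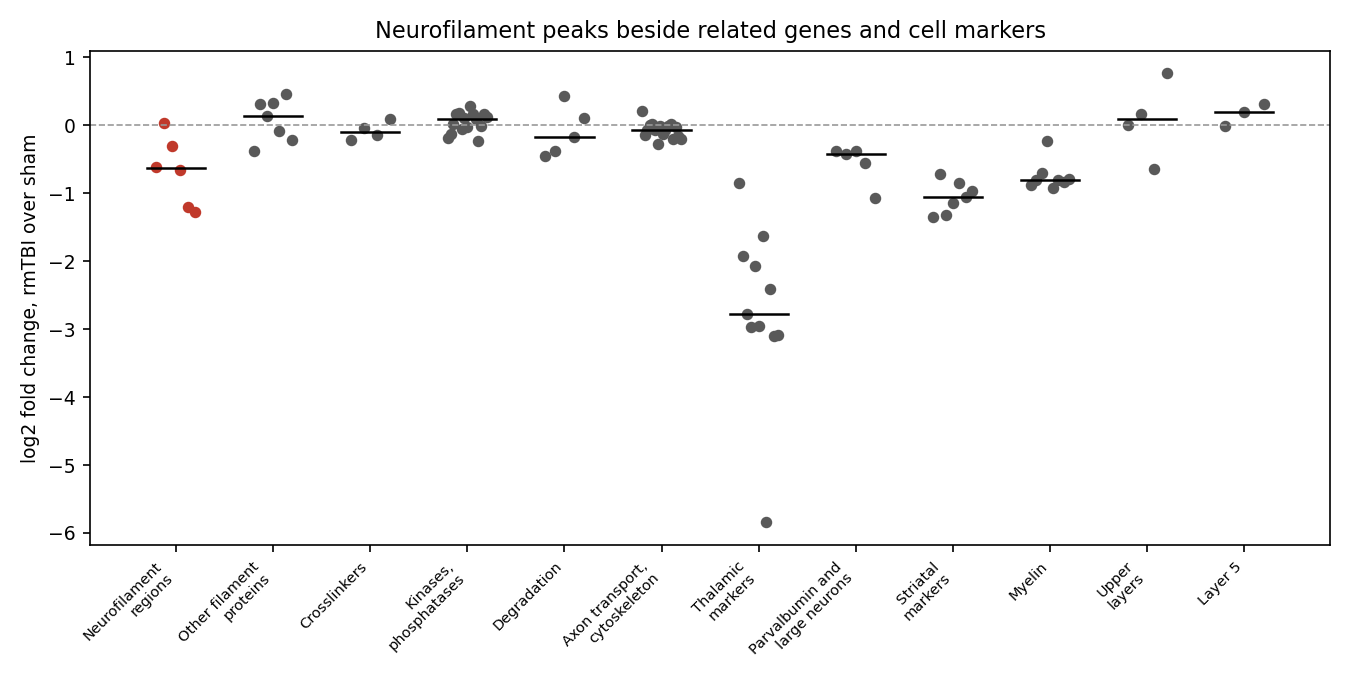
Log2 fold change of rmTBI over sham at the 6 neurofilament regions (red) and at genes of the lists named on the axis (grey). Each listed gene is shown at its peak with the highest mean CPM. Astrocyte, microglial and choroid plexus markers are not drawn. Black lines are medians and the dashed line is the median of all genes tested. The 2 Nefh points lie at -1.20 and -1.27, within the ranges of the striatal and of the thalamic markers. The lists of related genes lie between -0.45 and 0.47, and the thalamic markers run from -5.84 to -0.84.

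Since the meaning of the numbers is open in the labels, the neurofilament peaks were also set out by number. At the Nefh 3' UTR peak of the sham set, number 1 over number 0 gave a log2 ratio of 0.23 in rmTBI and 0.25 in sham, and at the Nefl long peak 0.03 in rmTBI and 0.27 in sham. The Nefm long peak of that set had 0.06 in rmTBI and 0.22 in sham. The Nefl short peak went the other way in both groups, with -0.28 in rmTBI and -0.93 in sham.

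Over all 4 libraries, edgeR with Benjamini-Hochberg adjustment called 0 of the 10 neurofilament peaks between the numbers, where 16.4% of all tested peaks were called. None had an unadjusted p under 0.05, and DESeq2 called 0. The adjusted p ran from 0.177 at the Nefl short peak to 0.757 at the Nefh 3' UTR peak. For Nefh the spread in this test holds the difference between rmTBI and sham, which widens the error (log2 0.24, SE 0.45 at the 3' UTR peak).

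The authors' deposited table gives its own log2 value and p-value per peak, from a contrast that it does not name. Across all 33977 peaks that log2 value followed the log2 ratio of number 1 to number 0 in rmTBI minus the same ratio in sham, taken from counts with 0.5 added (r = 0.99 across peaks, which are not independent), and 95.7% of peaks lay within 0.1 of it after a median offset of -0.07. At the 10 neurofilament rows the offset ran from -0.068 to -0.065. The deposited log2 values thus compare the 1-over-0 ratio between the conditions and are not the rmTBI and sham folds given above. What the deposited p-values test is not named, and at the neurofilament rows they did not follow the size of the deposited log2 value. In the authors' deposited table the Nefh 3' UTR rows had a log2 value of 0.03 and the coding rows 0.27 and 0.28, with p-values of 0.0080 at the 3' UTR and of 0.00099 and 0.0010 at the coding region. The Nefl long peak had -0.20 (p = 0.99 in the authors' deposited table) and the short one 0.70 (p = 0.15 in the authors' deposited table), and the Nefm rows lay between -0.12 and 0.13 in the authors' deposited table. With a p under 0.05 there, 4 of the 10 neurofilament rows stood beside 1.65% of all rows in the authors' deposited table. The adjusted p-value in that table was 0.998 at every neurofilament row, and 0 of the 10 rows are in the deposited lists of 277 higher and 146 lower peaks, which hold log2 values past 1.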

How the data were processed

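Read counts per m6A peak were analysed for 2 rmTBI and 2 sham libraries of mouse cortex. The authors deposited whole-number counts per peak that are not normalized, and, per the file headers, a log2 fold change with raw and adjusted p-value from a test of their own. STAR, DESeq2 and GRCm39 are named in the submitters' processing notes without versions or roles; no source used here names the peak caller, the read counter or the strand setting. Of 31956 peaks in genes with 1 RefSeq span (GRCm38.p6), 98.3% overlapped that span, so the deposited coordinates were taken as GRCm38 positions. Peaks were called per condition, and overlapping rows share reads.

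Counts were tested with edgeR 4.0.16 (R 4.3.3; TMM, filterByExpr, quasi-likelihood F-test) over all 33415 peaks that passed, on 2 residual degrees of freedom, once for group and once for library number. Each SE is the log2 fold change divided by the square root of F. DESeq2 1.42.0 was an alternative. The other alternatives were scaling, the filter, 1 row per overlap cluster, the library number in the model and leaving out each library. For ratios, the row with the most reads in each region was used. In a simulation of rmTBI against sham on these libraries' means (33028 peaks), edgeR called 9 of 50 peaks changed 2-fold and 46 of 50 changed 4-fold. The members and gene lists were chosen with earlier results of these data known. Named were the 3 members, in each list up to 3 genes with the largest change at their strongest peak, and the 5 genes nearest to Nefh. Some genes that the lists hold are not reported here. A list of differing peaks that breaks off in its last row was not used.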

Additional observations from a re-analysis of the deposited data

How the results depend on the processing

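The lower level of Nefh in rmTBI kept its direction in every alternative run, with log2 from -1.56 to -1.04 over its 4 rows. So did the long peaks of Nefm (-0.73 to -0.48) and Nefl (-0.45 to -0.16) and the short peak of Nefl (-1.06 to -0.14). At the Nefh rows and the long peaks, both rmTBI libraries lay below both sham libraries. Leaving out a library therefore left no room for their sign to turn, and the other settings refit the same counts. Their kept direction is thus no added support. Whether Nefh is called depends on the tool: edgeR called 0 neurofilament peaks under the other scalings, filters, overlap rule and with a library left out (0 to 0), DESeq2 called 4, and with the library number as a replicate block edgeR called 8, all lower, where that model called 5.22% of all peaks lower. The Nefm short peak turned sign without single libraries (-0.11 to 0.13 at the rmTBI-set row and -0.13 to 0.26 at the sham-set row). Over all peaks, 29 were called, against 138 with DESeq2, 2 with library-size scaling, 0 with at least 10 counts in every library, 17 with 1 row per overlap cluster, 82 to 122 without a library and 3553 with the replicate block. In the 5 gene lists the replicate block called 55 of 344 peaks, 12 higher and 43 lower. That model called 10.6% of all peaks, with 5.22% of all peaks called lower. The labels do not say that the numbers pair the libraries; same-numbered libraries deviated together (r = 0.48 across peaks, 2 pairs).

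Between library numbers, 5485 peaks were called over all genes, against 3241 with 1 row per overlap cluster, 12736 with group as a block and 1575 to 2748 without a library. With group as a block 8 neurofilament peaks were called, beside 38.1% of all peaks. Without a library the log2 of number 1 over 0 turned sign, from -0.48 to 0.95 at both rows of the Nefh 3' UTR, -0.35 to 1.21 and -0.33 to 1.23 at the Nefh coding rows, -0.06 to 0.36 at the Nefl long peak, and -0.22 to 0.47 and -0.23 to 0.46 at the Nefm long rows. With a library left out, its number is held by the other group alone, so the difference between rmTBI and sham enters this log2 value. In the simulation, edgeR called 9 of 50 peaks raised 2-fold in rmTBI. The changed peaks there were all raised, with a spread fitted by level and not peak by peak. They therefore do not tell how often a lower peak such as that of Nefh would be called.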

Other observations

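In the authors' deposited table, Nefh paired a log2 value near 0 with a small p-value, which is rare in that table. Of 19197 peaks whose deposited log2 value lay within 0.3 of 0, 45 had a p-value under 0.05 in the authors' deposited table, or 0.234%, and 4 of these were the Nefh rows. Under a p-value of 0.01 in the authors' deposited table there were 16 such peaks, again with all 4 Nefh rows. The 45 peaks had a median absolute log2 difference of 1.18 between rmTBI and sham in the counts, beside 0.14 for the other 19152 peaks of that range.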
